A study of Caenorhabditis elegans with 2 samples.

Results

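The citric acid cycle oxidises acetyl-CoA in the mitochondrial matrix, releases carbon dioxide and passes electrons to the respiratory chain. Most of its enzymes are soluble, while succinate dehydrogenase sits in the inner membrane and is also complex II of that chain. The genes examined here were chosen by name and encode 7 enzymes of the cycle in the nematode Caenorhabditis elegans: cts-1, aco-2, idha-1, ogdh-1, sdha-1, fum-1 and mdh-2, out of 19973 annotated protein-coding genes. A region was given to a gene when its summit lay between 1000 bp upstream of a transcript start and the gene end. The question was where a tagged forkhead transcription factor, FKH-10, was found at these genes.

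Chromatin immunoprecipitation with sequencing (ChIP-seq), which recovers DNA bound by a protein, had been carried out on fourth-stage larvae (L4), both sexes pooled, in 2 biological replicates of 1 group. All animals were of strain OP337, with the mutation unc119(ed3) and the insertion wgIs377, in which fkh-10 is fused with the tags TY1, EGFP and FLAG beside a copy of unc119. Both replicates came from that single strain, no untagged group was analysed here, and whole animals were used, so signal from different cell types cannot be told apart. The deposited lists on the ce11 genome build held 2253 regions past the authors' threshold on the irreproducible discovery rate over both replicates (IDR regions), and longer relaxed lists with background included: 30000 regions in replicate 1, 28886 in replicate 2 and 19381 with both pooled. Each region has a signal, the authors' enrichment over a control library on an unstated scale, and regions were ranked by it within each list, with rank 1 the strongest. Read depth is unknown, so no counting error can be attached to a signal and both replicate values are shown instead. The gene named in the labels, fkh-10, had 0 regions within 20 kb in any of the 4 lists, and unc-119 had 1 IDR region inside the gene. These counts do not check the label, and the libraries are described as those labelled FKH-10.

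Of the 7 genes, 3 had an IDR region: sdha-1, aco-2 and mdh-2. Over all protein-coding genes the same rule gave an IDR region to 8.56%. The other members, cts-1, idha-1, ogdh-1 and fum-1, had 0 IDR regions. In the relaxed lists many genes of any kind had some region in the window, and the members are read against those shares: 6 of the 7 had a pooled region against 45.0% of all genes, 7 had one in replicate 1 against 61.6%, and 6 had one in replicate 2 against 55.1%. Among genes with a pooled region, 19.0% also had an IDR region, and among the members 3 of 6 did. The genes were named with earlier results of these data known, so these counts carry no test.

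The sequences under the regions that passed the threshold at these genes are shown first, since the positions described below refer to them. Each is given 5′ to 3′ on the strand of the enzyme gene, read from the WBcel235 (ce11) assembly. Capitals mark a match on either strand to the forkhead consensus NTAAANA, with A or G as the first base and C or T as the sixth, to GAGAGAG, or to TGATAA. The narrower forkhead word GTAAACA is one form of the consensus and was also counted alone, and no marked matches overlap in these sequences. For sdha-1 (chrX:8546119-8546319, minus strand) and mdh-2 (chrIII:6608217-6608417, minus strand) these are the 201 bases centred on the IDR summit. For aco-2 (chrIII:7973387-7973477, plus strand) only the 91 bases outside a neighbouring protein-coding gene are shown, beginning 10 bp from the summit. Most of these bases lie inside a noncoding RNA gene (chrIII:7973327-7973465), which is described with the aco-2 region below.
sdha-1: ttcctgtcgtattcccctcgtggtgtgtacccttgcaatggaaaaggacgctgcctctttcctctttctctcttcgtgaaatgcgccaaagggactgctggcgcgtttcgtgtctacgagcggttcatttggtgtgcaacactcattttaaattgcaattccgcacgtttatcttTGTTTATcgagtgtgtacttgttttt
aco-2: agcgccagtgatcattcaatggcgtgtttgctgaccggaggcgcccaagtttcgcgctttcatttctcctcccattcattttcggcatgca
mdh-2: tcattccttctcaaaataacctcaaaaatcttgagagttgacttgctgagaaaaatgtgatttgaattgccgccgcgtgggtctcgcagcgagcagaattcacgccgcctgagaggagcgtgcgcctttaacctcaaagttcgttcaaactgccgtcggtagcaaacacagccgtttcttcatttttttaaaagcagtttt

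sdha-1 (WBGene00015391, chrX:8542757-8546021, minus strand) encodes the flavoprotein subunit of succinate dehydrogenase, which oxidises succinate to fumarate. It had the strongest region of the 7 genes. The IDR region (chrX:8546024-8546413) reached a signal of 91.95 (rank 292 of 2253), above the median signal of the IDR list, which was 59.2. In replicate 1 the signal at this site was 36.3, with rank 493 of 30000. In replicate 2 it was 68.2, with rank 99 of 28886. The site was therefore among the strongest of each replicate list, although the value was higher in replicate 2 (mean 52.2 ± 22.6, SD, n = 2). Such an SD, here and below, includes a difference between the lists as wholes. At IDR regions found in both, the median was 25.9 in replicate 1 and 34.2 in replicate 2. The summit lay 198 bp upstream of the only annotated start in the IDR, pooled and replicate 1 lists, and 189 bp upstream in replicate 2. The forkhead word shown above (TGTTTAT, from base 176 of the 201) was towards the sdha-1 start and not at the summit. It lay inside the snoRNA gene D2021.6, described next.

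The sdha-1 region covered annotated noncoding genes and no protein-coding start. Its summit lay between them, 15 bp upstream of D2021.6, a snoRNA gene on the same strand (chrX:8546076-8546204), and 4 bp upstream of D2021.5, a noncoding RNA gene on the other strand (chrX:8546223-8546434). The next protein-coding gene upstream, D2021.4, is on the same strand and ends 423 bp before sdha-1, and by the window rule it did not share the region. Weaker regions lay inside the sdha-1 coding sequence. The pooled list had one 373 bp downstream of the start, at a signal of 13.5 (rank 17328 of 19381). Replicate 1 had one at 338 bp with a signal of 17.3 (rank 2686) and another at 1128 bp with a signal of 7.93 (rank 20315), while replicate 2 had none inside the gene.

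aco-2 (WBGene00000041, chrIII:7973717-7977355, plus strand) encodes the mitochondrial aconitase, which turns citrate into isocitrate. Its IDR region (chrIII:7973182-7973571) reached a signal of 60.9 (rank 1074 of 2253), close to the middle of that list. Replicate 1 gave 36.1 at this site (rank 500) and replicate 2 gave 27.6 (rank 1781), a mean of 31.8 ± 6.02 (SD, n = 2). Thus aco-2 and sdha-1 had nearly the same signal in replicate 1 and stood apart in replicate 2. The aco-2 summits of the 4 lists lay between 328 and 343 bp upstream of the first of its 4 annotated starts.

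The region at aco-2 cannot be assigned to that gene alone. The divergent gene eef-1B.1, which encodes a subunit of the translation elongation factor that recharges EF-1 alpha with GTP, begins 330 bp upstream of aco-2. The IDR summit was 9 bp inside eef-1B.1, in its annotated 5′ untranslated region, and so far nearer to that start than to aco-2. The summit also lay inside F54H12.9, a noncoding RNA gene (chrIII:7973327-7973465). A second site, in an aco-2 intron and 160 bp upstream of an internal start, was weak: its signal was 13.6 in the pooled list (rank 16911) and 8.36 in replicate 2 (rank 14964), with no counterpart in replicate 1.

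mdh-2 (WBGene00003162, chrIII:6606544-6608106, minus strand) encodes the mitochondrial malate dehydrogenase, which returns malate to oxaloacetate. Its IDR region (chrIII:6608122-6608511) was close to the foot of the list, at 44.7 (rank 1972 of 2253), where the lowest signal was 41.5. The site measured 13.8 in replicate 1 (rank 4842) and 23.25 in replicate 2 (rank 2365), a mean of 18.5 ± 6.69 (SD, n = 2). It was thus the lowest of the 3 genes in each replicate. With the 2253 strongest regions of a single replicate in place of the IDR list, sdha-1 and aco-2 were marked and mdh-2 was not, so that 2 of the 7 were, against 8.12% of all genes for replicate 1 and 8.47% for replicate 2. The 1126 strongest IDR regions likewise held sdha-1 and aco-2 only, against 4.53% of all genes. The summit lay 211 bp upstream of the start in the IDR list, 226 bp in the pooled list and replicate 2, and 161 bp in replicate 1. F20H11.4, a divergent protein-coding gene, begins 305 bp on the other side of the IDR summit and shares the region by the window rule. With each region given only to the nearest protein-coding start, mdh-2 and sdha-1 kept theirs and aco-2 did not, so that 2 of the 7 had an IDR region, against 6.59% of all genes. With the promoter alone, from 1000 bp upstream to 200 bp downstream of a start, all 3 kept theirs, against 6.98% of all genes.

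**Figure D1:**
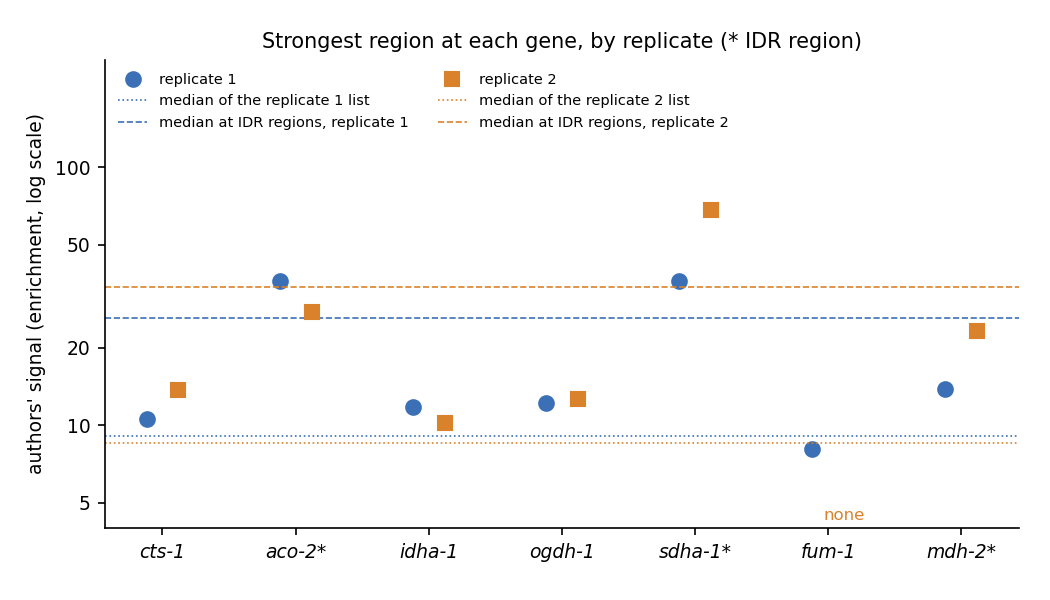
Signal of the strongest region in each gene's window, by replicate, on a log axis; circles are replicate 1 and squares replicate 2, dotted lines the median of each replicate list (9.08 and 8.51) and dashed lines the median at IDR regions found in both (25.9 and 34.2). Asterisks mark genes with an IDR region: sdha-1 and aco-2 lie highest, and mdh-2 is next in replicate 2. The genes without an asterisk reach up to 12.15 (ogdh-1) in replicate 1 and 13.7 (cts-1) in replicate 2. In replicate 1 mdh-2, at 13.8, is little above them, and fum-1 has no replicate 2 region.

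Among the 4 members without an IDR region, idha-1 had an upstream site found in both replicates. idha-1 (WBGene00009664, chrI:8606549-8608631, minus strand) encodes the alpha subunit of the NAD-dependent isocitrate dehydrogenase. A pooled region had its summit 195 bp upstream of the start, and its signal of 23.6 ranked 5062 of 19381. The replicates gave 10.8 in replicate 1 (rank 9640) and 10.2 in replicate 2 (rank 9866), close together and only slightly above the list medians of 9.08 and 8.51. Replicate 1 also had summits 62 and 295 bp inside the coding sequence, with signals of 9.49 and 11.7, which replicate 2 lacked. The nearest IDR summit to the gene was 6.6 kb away.

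cts-1 (WBGene00000833, chrIII:10214771-10216635, minus strand) encodes citrate synthase, which opens the cycle by joining acetyl-CoA to oxaloacetate. Its replicates did not share a site. Replicate 2 had a summit 224 bp upstream of the start with a signal of 13.7 (rank 5442), and the pooled list one at 165 bp with a signal of 13.6 (rank 16917 of 19381). Replicate 1 had none there: its summits were 653 bp upstream, with a signal of 10.6 (rank 10179), and 1222 bp downstream in the coding sequence, with a signal of 8.79 (rank 16158). An IDR summit lay 2.13 kb from the gene, outside the window.

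ogdh-1 (WBGene00020679, chrIV:4696979-4704011, minus strand) encodes the E1 component of the oxoglutarate dehydrogenase complex, and is the longest of the 7 genes at 7033 bp. Its strongest pooled region was in an intron, 2679 bp downstream of the nearer of its 2 starts, with a signal of 17.3 (rank 9744). The matching signals were low, 6.77 in replicate 1 (rank 27432) and 7.10 in replicate 2 (rank 20107). Upstream of the gene, replicate 2 had a summit at 661 bp with a signal of 12.6 (rank 6397), which the pooled list also held with 14.4, and replicate 1 had no region there. The strongest replicate 1 region was instead 327 bp inside the gene, in an intron, with a signal of 12.1. The nearest IDR summit was 36.4 kb away.

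fum-1 (WBGene00001503, chrIII:7465605-7467640, plus strand) encodes fumarase, which hydrates fumarate to malate. It was the only one of the 7 with no region in the pooled list and none in replicate 2. Replicate 1 had 2 weak summits, 1028 bp inside the gene in the coding sequence (signal 8.09, rank 19485) and 1902 bp inside in the annotated 3′ untranslated region (signal 7.86, rank 20726), both below the median of that list. No region of any list had its summit within 1000 bp upstream of its start, and the nearest IDR summit was 31 kb away. The lists hold only regions that a caller kept, so the absence of a region does not give the level of binding there.

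**Figure D2:**
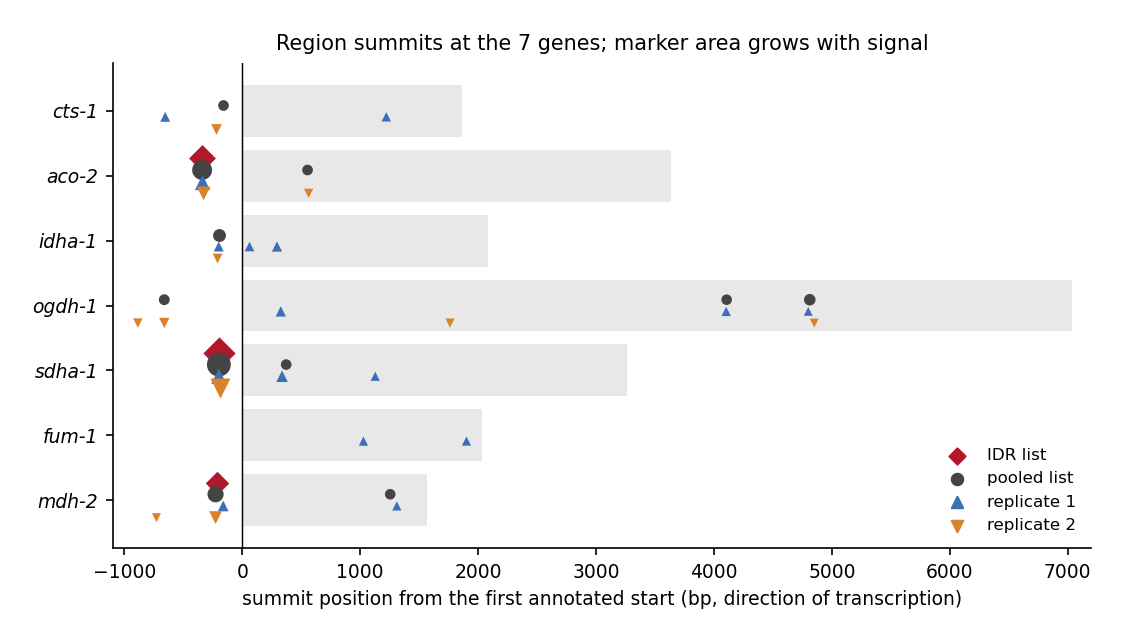
Summit positions at the 7 genes in bp from the first annotated start, in the direction of transcription; grey bars are the genes and marker area grows with the authors' signal in each of the 4 lists. The markers of the IDR sites at sdha-1, aco-2 and mdh-2 stack within 161 to 343 bp upstream of the start. The largest markers are among them, though that of mdh-2 in replicate 1 is small. Those elsewhere are scattered and often belong to 1 list.

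The 3 IDR regions were alike in having a summit upstream of the enzyme gene, though that at aco-2 was nearer to the eef-1B.1 start. Each was 390 bp wide, but so was every IDR region at the pathway genes described below, so the width is no likeness. The 3 summits lay 198, 211 and 340 bp upstream of the nearest start of the gene. Such a place was common: of 1710 protein-coding genes with an IDR region in the window, 1350 had the strongest summit upstream of the nearest start, at a median of 279 bp (quartiles 161 and 532), and 364 of the 1710 (21.3%) had it within the span of the 3 genes. Sharing with a neighbour was also seen elsewhere. Of 1589 IDR regions in the window of a protein-coding gene, 23.2% were in more than 1 such window, as those of aco-2 and mdh-2 were.

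The agreement of the replicates at these sites differed from gene to gene. At the 2013 IDR regions with a summit within 100 bp in both replicate lists, the log2 ratio of replicate 2 to replicate 1 had a median of 0.40 and quartiles of -0.0099 and 0.85. The ratio was 0.91 at sdha-1, just above the upper quartile, and 0.75 at mdh-2, inside the quartiles. At aco-2 it was -0.39, below the lower quartile, so aco-2 was relatively stronger in replicate 1 and the other 2 genes in replicate 2. Over all members, 5 of 7 had their strongest IDR or pooled region matched in both replicates: aco-2, sdha-1, mdh-2, idha-1 and ogdh-1. This match was present at 89.3% of all IDR regions and 34.5% of all pooled regions, and since both lists were made from the replicates it is a description only.

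**Figure D3:**
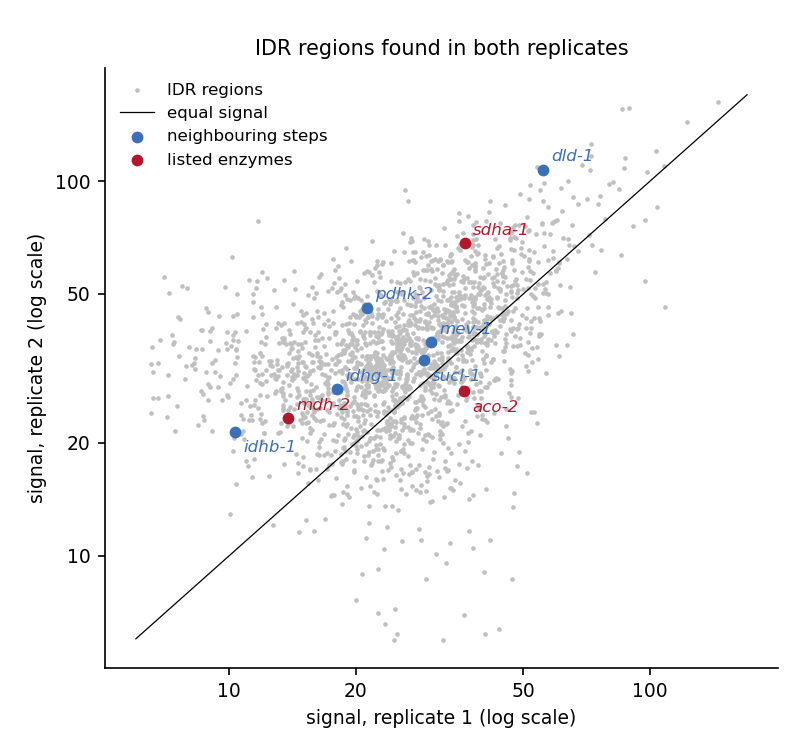
Signal in replicate 1 against replicate 2, both on log axes, for the 2013 IDR regions found in both replicate lists (grey), with the 3 members in red, 6 genes of neighbouring steps in blue and a line of equal signal. aco-2 lies below the line, with 36.1 and 27.6, and the other 8 labelled genes above it.

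The rest of the pathway was described with a list of 30 annotated genes for the partner subunits, isoforms and neighbouring reactions. Of these, 6 had an IDR region: dld-1, sucl-1, pdhk-2, mev-1, idhb-1 and idhg-1, against the 8.56% of all genes. In the pooled list 23 of the 30 had a region, against 45.0% of all genes. In replicate 1 26 did, against 61.6%, and in replicate 2 24 did, against 55.1%. The gene sucl-2, for an alpha subunit of succinyl-CoA ligase, was the only one with no region in any of the 4 lists.

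The strongest region of the whole set was at dld-1 (chrIV:14464517-14469136, plus strand), which encodes dihydrolipoamide dehydrogenase, the E3 component common to the pyruvate and oxoglutarate dehydrogenase complexes. Its IDR summit, 260 bp upstream of the start, carried a signal of 160.9 (rank 26 of 2253). Replicate 1 gave 55.7 (rank 84) and replicate 2 gave 107 (rank 13), so both replicates placed it higher than sdha-1. It lay inside LLC1.120, a noncoding RNA gene, and in the window of no other protein-coding gene. The E1 and E2 partners of the oxoglutarate complex, ogdh-1 and dlst-1, had no IDR region, and dlst-1, for the succinyltransferase, had only replicate 1 regions, with a highest signal of 9.18. The 201 bases around the dld-1 summit (chrIV:14464157-14464357, plus strand) are shown for comparison with the members above, with the forkhead word in capitals at base 8, far from the summit.
dld-1: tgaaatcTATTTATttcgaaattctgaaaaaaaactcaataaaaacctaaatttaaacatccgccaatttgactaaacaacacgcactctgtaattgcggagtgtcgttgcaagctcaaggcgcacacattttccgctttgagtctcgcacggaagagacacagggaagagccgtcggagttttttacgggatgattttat

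Within the enzyme complexes some subunit genes had an IDR region and others did not. Of the 4 succinate dehydrogenase genes, sdha-1 and mev-1 had one, against 8.56% of all protein-coding genes. mev-1, for the cytochrome b membrane anchor, had an IDR signal of 54.9 (rank 1367), with 30.1 in replicate 1 and 37.2 in replicate 2, and its summit 121 bp upstream of the start is shared with jmjd-4. The iron-sulfur subunit gene sdhb-1 had a pooled signal of 24.8 (rank 4636) and the other anchor gene, sdhd-1, only a replicate 2 region with a signal of 10.2. The paralog sdha-2 had a pooled signal of 12.8, near the foot of that list at rank 19164, and how reads from both copies were placed is not given in the sources used here.

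For the NAD-dependent isocitrate dehydrogenase, the beta subunit gene idhb-1 had an IDR signal of 48.8 (rank 1689) and the gamma subunit gene idhg-1 one of 44.9 (rank 1960). Their alpha partner idha-1 and the second gamma gene idhg-2 had none. The idhb-1 summit was 48 bp inside the gene and the idhg-1 summit 46 bp upstream of its start, nearer than at any of the 3 members. By the window rule the idhg-1 region is shared with mlcd-1, whose start was 621 bp from the summit. At idhg-1 replicate 1 gave a signal of 18 and replicate 2 one of 27.9. The idhb-1 site had 21.4 in replicate 2 and 10.3 in replicate 1, where a stronger summit, at 25, lay beyond the 100 bp match.

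At the remaining steps, sucl-1, for the alpha subunit of succinyl-CoA ligase, had an IDR signal of 66.1 (rank 852), with replicates of 28.9 and 33.3. Its beta partners suca-1 and sucg-1 had no IDR region in the window, although at suca-1 an IDR summit lay just outside it, 1067 bp from the gene. Of the 7 genes for the pyruvate dehydrogenase complex and its control, dld-1 and pdhk-2 had an IDR region, against 8.56% of all genes. pdhk-2 encodes the kinase that inactivates that complex and had an IDR signal of 64.4 (rank 926), with 21.2 in replicate 1 and 45.9 in replicate 2. The cytosolic counterparts of members, aco-1 and mdh-1, had no IDR region, and neither had idh-1. Nor had the genes of reactions that feed or drain the cycle, pyc-1, icl-1, men-1, pck-1, pck-2 and pck-3.

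**Figure D4:**
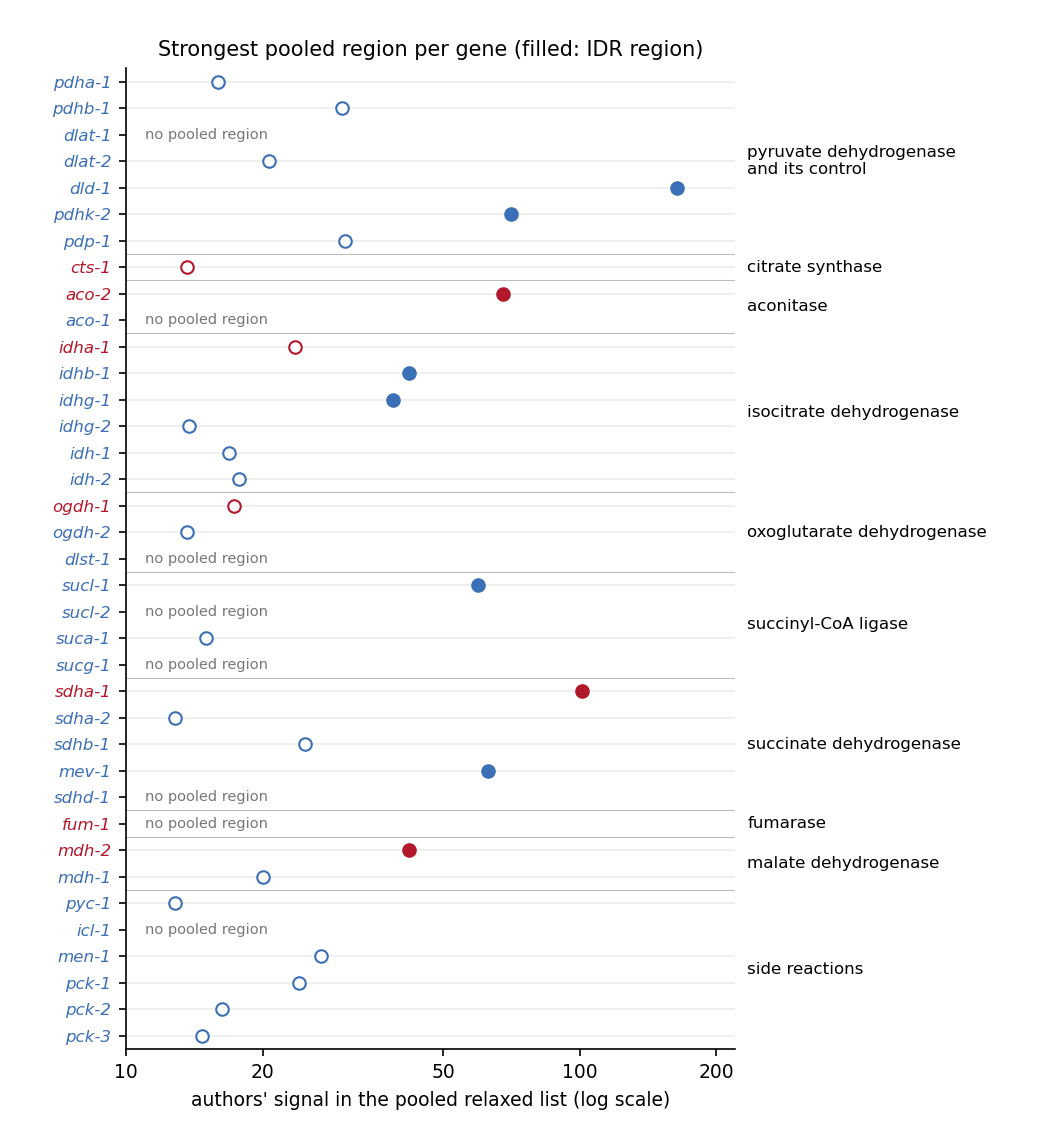
Signal of the strongest pooled region in the window of each gene, on a log axis, grouped by reaction; red marks the 7 members, blue the 30 further genes, and filled circles those with an IDR region. dld-1, at 163.8, and sdha-1, at 101, lie farthest to the right. Filled and open circles mix within pyruvate, isocitrate, succinate and malate dehydrogenase and succinyl-CoA ligase. dld-1 is drawn once, under pyruvate dehydrogenase.

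Sequence around the summits was compared with all IDR regions in windows of 201 bases. The GC content was 47.3% at aco-2, 46.3% at sdha-1 and 45.3% at mdh-2, within 1 SD of the mean of the 2253 windows (42.8% ± 7.08). Among the members, sdha-1 alone of the 3 held a forkhead word. Over the 9 members and pathway genes with an IDR region 4 did (sdha-1, idhb-1, idhg-1 and dld-1), against 13.98% of all IDR windows. GTAAACA and GAGAGAG were in 0 of the 9, against 3.6% and 20.1%, and TGATAA was in 2, idhg-1 and mev-1, against 7.19%. In the 201 bases before all protein-coding starts the forkhead consensus was in 26.6% and TGATAA in 22.75%. GTAAACA was there in 3.49% and GAGAGAG in 5.16%. A match of letters is not a binding site, and the numbers are too small for a comparison.

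Windows at members without an IDR region are shown for contrast, cts-1 around its pooled summit (chrIII:10216700-10216900, minus strand) and fum-1 over the 201 bases before its start (chrIII:7465404-7465604, plus strand). The windows around the pooled summits of idha-1 and ogdh-1, not shown, held none of the words. The cts-1 window held TGATAA on both strands, from bases 149 and 174. That word was in 22.75% of the 201-base windows before all protein-coding starts. The fum-1 window held a forkhead word from base 5, as did 26.6% of the same windows before all protein-coding starts, so such a word was present without a region in any list upstream of this gene.
cts-1: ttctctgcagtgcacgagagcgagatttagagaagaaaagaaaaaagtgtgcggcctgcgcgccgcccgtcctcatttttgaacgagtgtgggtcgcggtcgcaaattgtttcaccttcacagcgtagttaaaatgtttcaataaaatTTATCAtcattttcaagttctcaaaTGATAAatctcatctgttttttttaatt
fum-1: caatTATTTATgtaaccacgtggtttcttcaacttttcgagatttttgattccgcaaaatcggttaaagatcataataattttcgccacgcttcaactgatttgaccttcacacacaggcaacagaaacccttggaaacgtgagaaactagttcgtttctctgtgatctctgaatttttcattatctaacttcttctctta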

How the data were processed

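The authors deposited 8 region lists from 2 libraries, and the 4 on ce11 were used; those on ce10 were not, since positions are not converted between builds. Per the file headers of the accompanying descriptions, the lists are narrowPeak files made from alignments and a control, and the IDR list was derived from the pooled and both replicate lists. The deposited signal (column 7) is the authors' enrichment value; its scale and the software behind it are not stated there. Genes came from the Ensembl release 115 annotation of WBcel235, with mitochondrial genes left out, and all region ends lay within its chromosomes. Summits are the region start plus column 10, counted from 1, and the same site means summits within 100 bp. Where 2 or more lay that close the strongest was taken. Members and lists were chosen with earlier results of these data known, so no test was run. The genes named include the 7 members, pathway genes with an IDR region or in the complexes of the members, and genes sharing a region with one of these. Of 31 pathway symbols, 30 were found. Between the replicate lists 0 regions were identical. Scripts used Python 3.11.15, pandas 2.3.3 and matplotlib 3.10.9, and assignment was checked on simulated positions.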

Additional observations from a re-analysis of the deposited data

How the results depend on the processing

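The 3 members with an IDR region were the same with the promoter window alone, with 500 or 2000 bp upstream, and with 1 bp of overlap in place of the summit. In that order, the share of all genes with an IDR region was 6.98%, 7.345%, 10.6% and 9.51%. The count was 2 with the nearest start only (without aco-2), and 2 with the 1126 strongest IDR regions and with the 2253 strongest regions of either replicate alone (each without mdh-2). The mdh-2 site was at rank 1972 of 2253 in the IDR list, 2089 of 19381 in the pooled list and 2365 of 28886 in replicate 2. In replicate 1 it was placed lower, at rank 4842 of 30000. The IDR list keeps only regions past a threshold, so its ranks and those of a relaxed list are not on one scale. Of the 30 pathway genes, the 1126 strongest IDR regions held 3 (dld-1, pdhk-2 and sucl-1) and 4.53% of all genes were marked, by construction from fewer regions. With 2000 bp upstream, or with 1 bp of overlap, the pathway count was 7, with suca-1 added, against 10.6% and 9.51% of all genes. With 1 replicate alone the pathway count was 5 and the share of all genes 8.12% to 8.47%. The count of members matched in both replicates was 5 at match distances of 50, 100 and 200 bp and with overlap. No paired analysis was possible because there is 1 group and no test. Read depth is unknown, so how far depth limits weak sites such as those at fum-1 cannot be stated.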
